A study of Mus musculus with 4 samples.

Results

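DEAD and DEAH box RNA helicases were followed at the messenger RNA level in testis cells of 7-day-old C57BL/6 mice. The genes were chosen by name: protein-coding mouse genes whose symbol is Ddx or Dhx and a number, leaving out Ddx20, Ddx4, Ddx3y and pseudogenes. This gave 50 genes, 34 with a Ddx symbol (called DEAD members here) and 16 with a Dhx symbol (DEAH members), of 55357 gene identifiers in the table. The series asks which RNAs the helicase DDX20 binds in the young testis, and holds 2 groups of 2 libraries each. RNA immunoprecipitation (RIP) libraries hold RNA recovered with a DDX20 antibody, and input libraries hold RNA taken without antibody, 10% of the total RNA. Crosslinking with ultraviolet light, 200 mJ per square cm at 254 nm, is given for both groups. Mice of both groups have the same strain and age and no other treatment or genetic change is given; there is no precipitation with another antibody, so a higher value means a higher scaled level in RIP than in input and not binding by DDX20. The labels do not say whether the repeats are separate cell preparations, so the spread behind the p-values may be only technical, and the labels of the RIP repeats differ in the antibody's catalogue number by 1 character.

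RNA helicases use ATP to pull RNA strands apart or to strip proteins from RNA. DEAD box proteins bind a short stretch of double-stranded RNA and open it locally without moving along it, whereas DEAH box proteins grip a single strand and pull along it. Both names are read from motif II, a run of acidic residues in the helicase core that helps to hold and split ATP and reads Asp-Glu-Ala-Asp or Asp-Glu-Ala-His in the type members. In the testis, as in other tissues, these enzymes drive splicing, ribosome assembly, export and translation of messages, and a few are made mainly in germ cells.

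Motif II is where the sub-groups part, and the coding sequence around it is shown for 10 members on which the results below turn. They include a pair of paralogs that share part of their sequence. Each line gives 12 coding bases before the motif in lower case, the 4 motif codons in capitals and 12 bases after it, from 5′ to 3′ on the coding strand, read from the GENCODE M21 transcripts.
Ddx5: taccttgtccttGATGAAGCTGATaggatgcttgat
Ddx21: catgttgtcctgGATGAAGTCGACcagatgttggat
Ddx39b: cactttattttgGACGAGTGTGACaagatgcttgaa
Ddx58: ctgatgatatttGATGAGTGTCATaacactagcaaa
Dhx8: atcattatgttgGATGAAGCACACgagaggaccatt
Dhx15: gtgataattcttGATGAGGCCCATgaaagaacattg
Dhx9: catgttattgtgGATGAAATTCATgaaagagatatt
Dhx30: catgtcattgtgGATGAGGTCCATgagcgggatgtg
Ddx19a: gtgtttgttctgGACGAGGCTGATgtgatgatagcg
Ddx19b: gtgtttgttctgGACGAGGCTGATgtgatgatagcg

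In GRCm38 these coding windows lie within single exons at chr11:106785181-106785216 (Ddx5, minus strand), chr10:62591869-62591904 (Ddx21, minus), chr17:35247078-35247113 (Ddx39b, plus), chr4:40223873-40223908 (Ddx58, minus) and chr11:101752128-101752163 (Dhx8, plus). The other windows lie at chr5:52171484-52171519 (Dhx15, minus), chr1:153468877-153468912 (Dhx9, minus), chr9:110087661-110087696 (Dhx30, minus), chr8:110979074-110979109 (Ddx19a, minus) and chr8:111011323-111011358 (Ddx19b, minus). The capitals spell Asp-Glu-Ala-Asp in Ddx5, Ddx19a and Ddx19b, Asp-Glu-Val-Asp in Ddx21, Asp-Glu-Cys-Asp in Ddx39b and Asp-Glu-Cys-His in Ddx58. Dhx8 and Dhx15 spell Asp-Glu-Ala-His, Dhx9 spells Asp-Glu-Ile-His and Dhx30 spells Asp-Glu-Val-His. The 36 bases of Ddx19a and Ddx19b are identical.

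The motif was searched in the translated coding sequence as Asp-Glu, any residue, then Asp or His, starting 60 to 160 residues after a Gly-Lys followed by Thr or Ser, the ATP-binding loop that precedes it. It was found at that spacing in 46 of the 50 members, against 1.12% of 21866 coding genes. The spelling Asp-Glu-Ala-Asp occurred in 23 members and Asp-Glu-Ala-His in 8, while anywhere in the protein these occur in 0.745% and 0.334% of coding genes. All 15 DEAH members with the motif ended in His, and 29 of 31 DEAD members with it ended in Asp, the others being Ddx58 and Ddx60. Ddx1, Ddx11, Ddx24 and Dhx32 had no match at that spacing, which says only that these residues are not in that window.

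All 50 messages passed the filter on low counts. Levels are CPM (reads scaled to a common library total) on library sizes scaled by TMM, a method that sets the bulk of genes to no change. Summed over the 50 genes, they came to 4688 and 4621 CPM in the input libraries and 8859 and 8776 CPM in the RIP libraries. The RIP sum was 1.90 times the input sum, and this sum is carried by the most abundant genes. The sum over all 17422 genes tested was also higher in RIP on this scale, at 1121000 to 1136000 CPM against 885300 to 887200 CPM in input. Per kilobase of merged exons, Ddx5 was the highest in input at 92.2 CPM per kb, followed by Ddx3x at 70.4, Ddx18 at 43.5, Ddx39b at 42.4 and Ddx56 at 41.7, and the lowest were Dhx58 at 0.738 and Ddx60 at 0.220. The median level in input was 15.9 CPM per kb for DEAD members and 6.61 for DEAH members, and in RIP 24.5 and 17.8 CPM per kb.

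**Figure D1:**
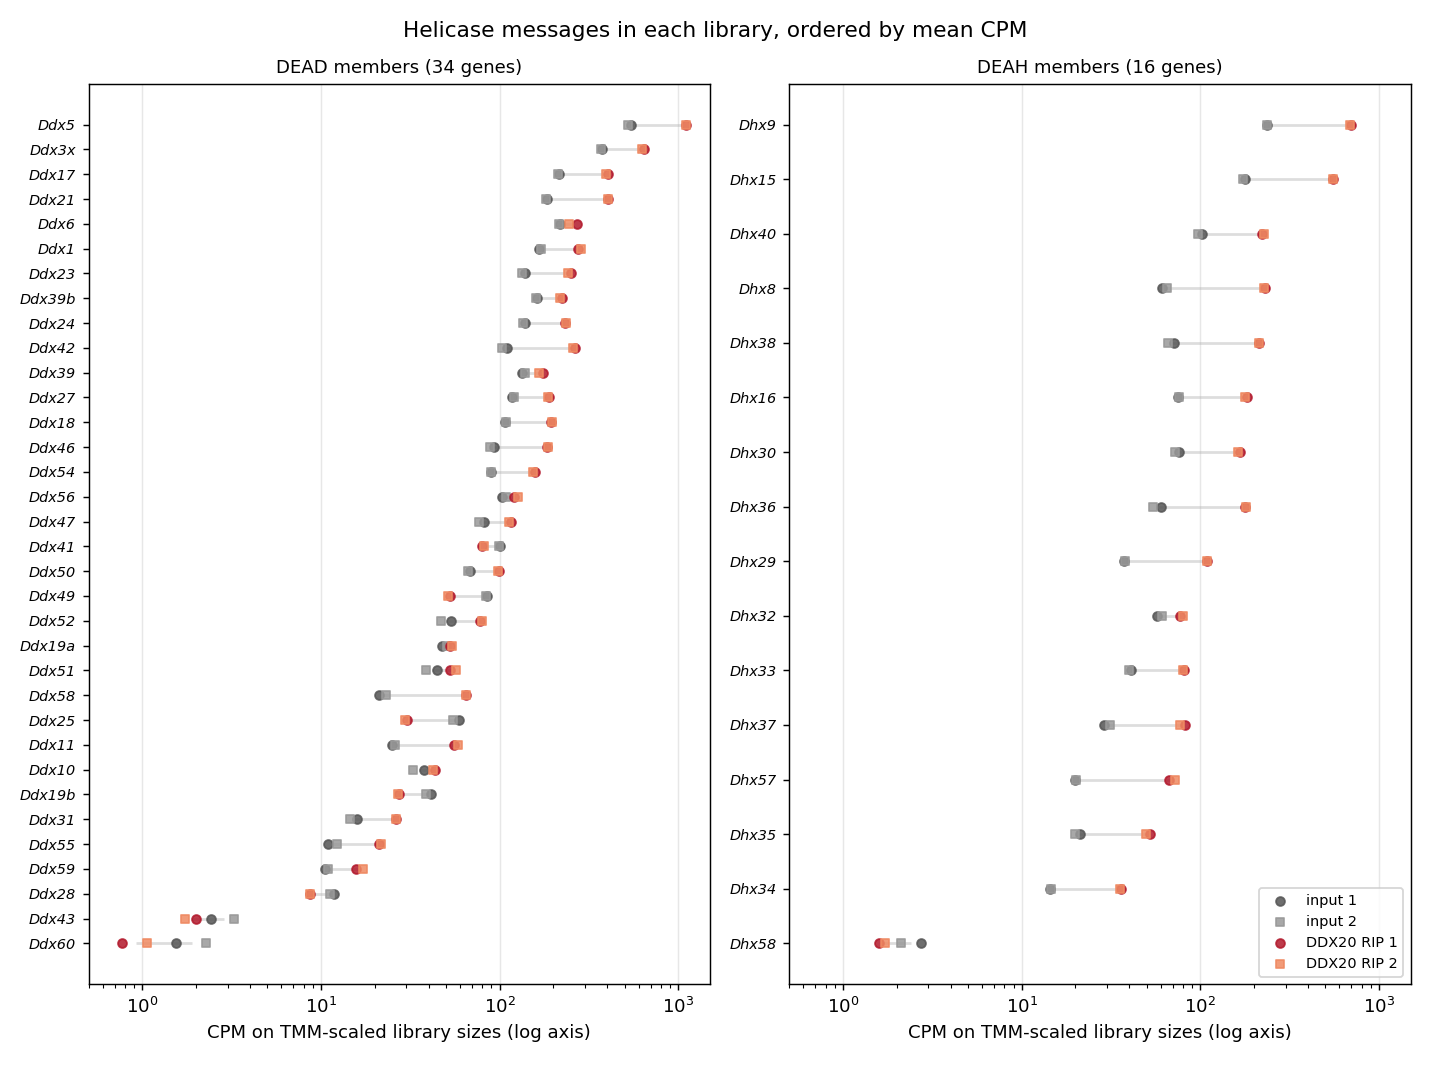
CPM (log axis) of each DEAD member (left) and DEAH member (right) in the 2 input libraries (grey) and the 2 DDX20 RIP libraries (red), with genes ordered by mean CPM; grey lines join the group means. The RIP points lie right of the input points for most genes, while Ddx25, Ddx49, Ddx19b and the scarce Ddx60 are among those that lie to the left.

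Most helicase messages stood higher in RIP than in input on this scale, which sets the bulk of genes to no change. At a Benjamini-Hochberg adjusted p of 0.05 in edgeR's quasi-likelihood test, 41 members rose and 7 fell, whereas over the 17422 genes tested 38.7% rose and 38.6% fell. Protein-coding genes with a mean of at least 10 CPM, a closer background for this family, rose in 58.4% and fell in 31.9% of 9600 cases. A change of at least 2-fold upward was called for 19 members and downward for 1 member, against 17.1% and 23.5% of all genes tested. In all 50 members the 2 input values and the 2 RIP values did not overlap, but this held for 88.0% of all tested genes.

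The median fold change of RIP over input was higher for DEAH than for DEAD messages, while the DEAH median level per kb was lower in both groups. Of 16 DEAH members 15 rose and none fell, Dhx58 being called lower under 5 alternatives, and 13 rose at least 2-fold; their median was 1.36 in log2 units of RIP over input. Of 34 DEAD members 26 rose and 7 fell around a median of 0.63. The 6 that rose at least 2-fold were Ddx58, Ddx42, Ddx11, Ddx21, Ddx5 and Ddx46. That is 17.6%, near the 17.1% of all genes tested and below the 25.3% of the 9600 coding genes. Over all genes tested 38.7% rose and 38.6% fell. Of DEAH members 81.2% rose at least 2-fold. So did 74.8% of coding genes of 3000 to 5000 nt, the range that holds the DEAH median coding length. Ddx58 carries a motif II ending in His, and the protein of Ddx11, which had no match at the set spacing, holds Asp-Glu-Ala-His elsewhere. A motif ending in His did not go with a rise throughout. Ddx60, the other DEAD member with one, had the largest fall (-1.05), and Dhx58, with the same motif as Ddx58, stood at -0.54. The median over all genes tested was -0.05, and over the 9600 coding genes it was 0.38. The genes are not replicates of one another, so the difference between the sub-groups has no test. Fold changes depend on the scaling: on total counts, which give the share of each library, the median of all genes moved to -0.40, members with a larger share in RIP numbered 35 and those with a smaller share 11, and 28.7% of all genes rose and 50.8% fell. With a coefficient of variation of 0.2 between repeats assumed in place of the measured spread, 17 DEAD and 14 DEAH members rose and 3 DEAD members fell, against 26.2% and 30.1% of all genes.

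**Figure D2:**
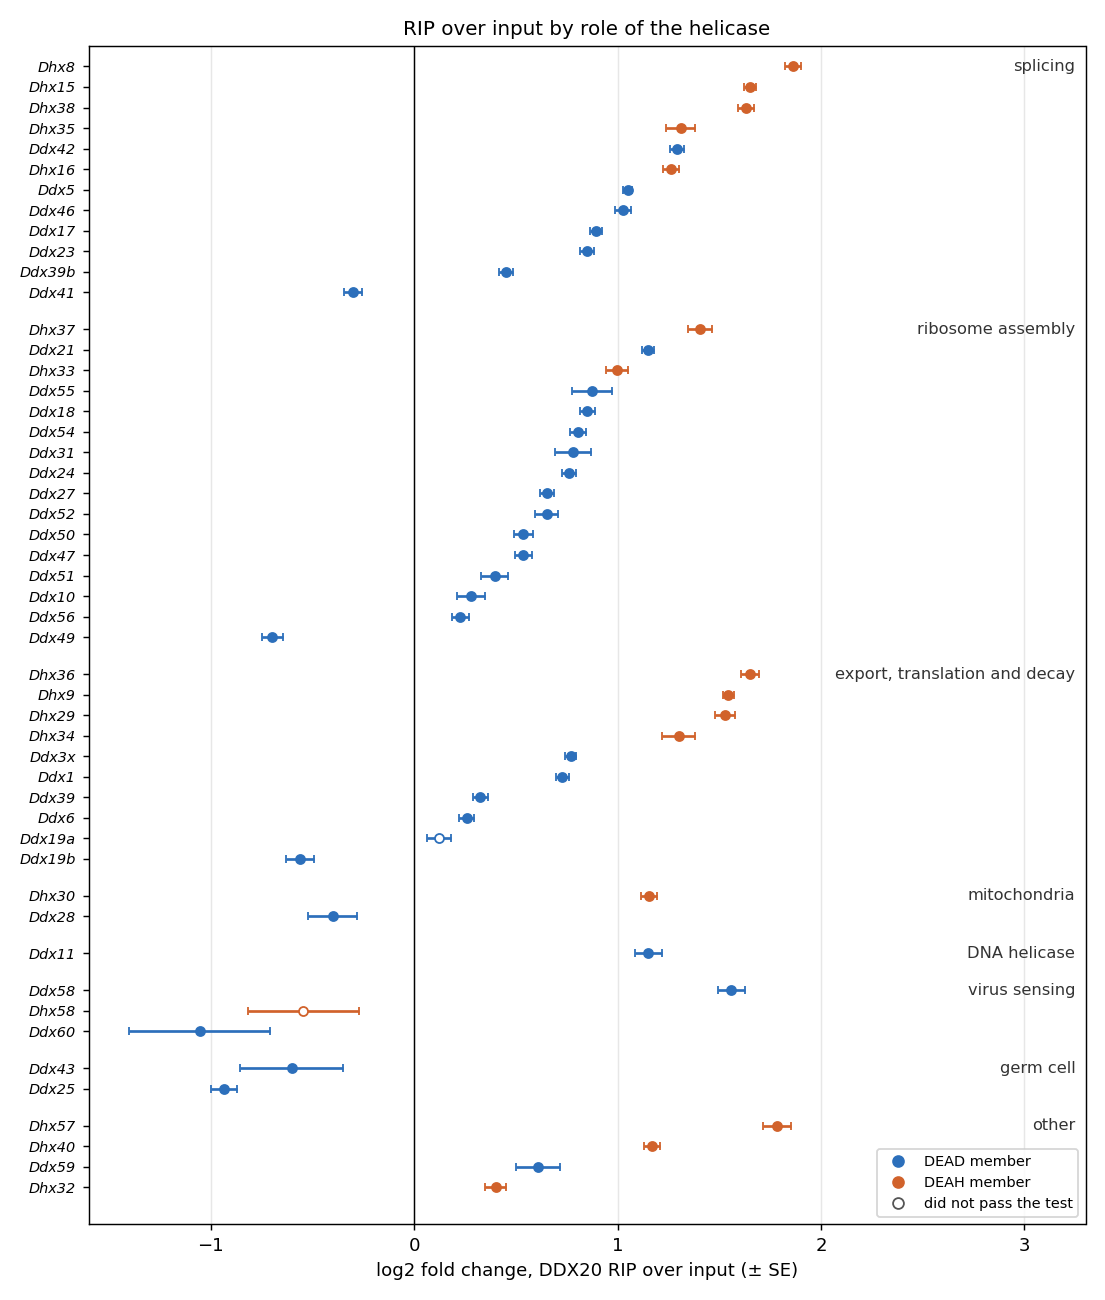
Fitted log2 fold change of RIP over input with its standard error (bars) for the 50 members, grouped by role, blue for DEAD and orange for DEAH members; open points did not pass the test. A DEAH member has the highest value in the splicing, ribosome, export and mitochondrial groups.

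Of 12 splicing helicases, 11 rose and 1 fell, with Dhx8, Dhx15 and Dhx38 among the highest of the family. Their median was 1.16 on the log2 scale, and coding genes of 2000 to 3000 nt, the range that holds the median coding length of this list, rose in 91.9% of cases. The DEAH helicases of this group each drive 1 remodelling step of the spliceosome. Dhx8, which frees the spliced message, had 61.3 and 64.7 CPM in input and 230.1 and 228 CPM in RIP, the largest rise among the members. Its log2 fold change was 1.86 ± 0.04 (SE, n = 2 per group; edgeR's quasi-likelihood test, Benjamini-Hochberg adjusted p = 7.1e-30). Dhx15, which takes the spent spliceosome apart, had 177 and 173 CPM in input and 551 and 549.5 CPM in RIP (1.65 ± 0.03; the same edgeR test, adjusted p = 2.9e-32). Dhx8 lies at chr11:101732919-101767358 on the plus strand and Dhx15 at chr5:52150203-52190514 on the minus strand. In both genes the RIP libraries were about alike and above either input library, while 88.0% of all tested genes had no overlap between the groups.

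Dhx38, which acts at the second catalytic step, had 71.7 and 66.3 CPM in input and 214 CPM in each RIP library, a log2 fold change of 1.63 ± 0.04. Dhx16, which activates the spliceosome, had 74.9 and 75.7 CPM in input and 182 and 179 in RIP, a log2 fold change of 1.26 ± 0.04. Dhx35, found in the catalytic spliceosome, had 21.2 and 19.8 CPM in input and 52.3 and 49.4 in RIP, a log2 fold change of 1.31 ± 0.07. All 5 spliceosomal DEAH messages rose by more than 1 on the log2 scale, that is more than 2-fold. A rise of at least 2-fold was called for 48.1% of coding genes of 2000 to 3000 nt and 74.8% of those of 3000 to 5000 nt. These ranges hold the 5 genes. Snrnp200, the spliceosomal helicase of another family that unwinds the small nuclear RNAs, rose from 256 ± 4.7 CPM to 1027 ± 16 CPM (SD, n = 2), a log2 fold change of 2.00.

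The DEAD helicases of splicing spread more widely. Ddx5, a co-regulator of splicing and transcription and the most abundant member, had 540.2 and 525 CPM in input and 1105 and 1100 CPM in RIP, a log2 fold change of 1.05 ± 0.02 (edgeR's quasi-likelihood test, Benjamini-Hochberg adjusted p = 7.7e-29). Its paralog Ddx17 rose by a log2 fold change of 0.89. Of the enzymes that act on the assembling spliceosome, Ddx42 rose by 1.29, Ddx46 by 1.03, Ddx23 by 0.85 and Ddx39b by 0.45 on the log2 scale. Ddx41, a spliceosome-associated gene mutated in some inherited leukaemias, fell by 0.30. It shares exonic bases with Gm46416 on the opposite strand, 17.4% of its exons, and the library kit does not mark strand, so reads of the pair cannot be told apart. Likewise 22.7% of the 50-base words of Ddx5 occur in Gm12183, so part of its count could be placed on either locus.

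Ribosome assembly helicases act in the nucleolus on ribosomal RNA precursors. Of 16 members, 15 rose and 1 fell, and the same 91.9% of coding genes is the background of like length. Their median was 0.71 on the log2 scale, and only Dhx37 and Ddx21 rose at least 2-fold, against 48.1% of those coding genes. Ddx21, which works in ribosomal RNA synthesis and processing, had 184 and 182 CPM in input and 406 CPM in each RIP library, a log2 fold change of 1.15 ± 0.03 (edgeR's quasi-likelihood test, Benjamini-Hochberg adjusted p = 1.8e-27). Its paralog and chromosomal neighbour Ddx50 rose by 0.54, with 17.3% of its 50-base words also found in other genes, mainly Gm8228. Dhx37, a small-subunit assembly factor mutated in some disorders of testis development, had 28.8 and 31.1 CPM in input and 82.1 and 76.6 CPM in RIP (1.41 ± 0.06 on the log2 scale). Dhx33, linked to ribosomal RNA synthesis, had 40.7 and 39.7 CPM in input and 80.8 and 79.7 in RIP, a log2 fold change of 1.00 ± 0.05.

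The DEAD members of the large-subunit pathway rose by less. On the log2 scale Ddx55 rose by 0.88, Ddx18 by 0.85, Ddx54 by 0.80, Ddx31 by 0.78, Ddx24 by 0.76, Ddx27 by 0.65, Ddx51 by 0.40 and Ddx56 by 0.23. On total counts Ddx56 was called lower (-0.12) and Ddx51 (0.05) lost its call. Gm43579 on the opposite strand overlaps 15.5% of the exons of Ddx54, and Ddx18 shares 57.7% of its 50-base words with the pseudogene Gm16433, so its count is uncertain. Among members of the small-subunit pathway Ddx52 rose by 0.65, Ddx47 by 0.54 and Ddx10 by 0.28, the last standing at -0.07 on total counts. Ddx49, also of that pathway, had 84.8 and 84.3 CPM in input and 53.0 and 51.4 CPM in RIP, and fell by 0.70 ± 0.05 on the log2 scale (edgeR's quasi-likelihood test, Benjamini-Hochberg adjusted p = 1.4e-14). Homer3 on the opposite strand overlaps 29.9% of the exons of Ddx49, so this fall cannot be given to Ddx49 alone.

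Of 10 helicases of export, translation and decay, 8 rose, 1 fell and Ddx19a did not pass the test, against 91.9% rising among coding genes of 2000 to 3000 nt, with a median log2 fold change of 0.75. The most abundant was Ddx3x, which helps ribosomes start on structured leaders, with 372 and 371 CPM in input and 642 and 625 CPM in RIP (0.77 ± 0.03; edgeR's quasi-likelihood test, Benjamini-Hochberg adjusted p = 6.8e-24). Dhx9, a nuclear helicase that unwinds double-stranded RNA, had 237 CPM in each input library and 697 and 685 CPM in RIP, a log2 fold change of 1.54 ± 0.03. Dhx36, which opens G-quadruplexes, had 59.9 and 54.0 CPM in input and 177 and 180.4 in RIP, a log2 fold change of 1.65 ± 0.04. These 3 messages were higher in both RIP libraries than in either input library, while 88.0% of all tested genes had no overlap between the groups.

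Dhx29, which helps the small ribosomal subunit to scan leaders, had 37.2 and 38.1 CPM in input and 109 and 108 in RIP, a log2 fold change of 1.53 ± 0.05. Dhx34, a factor of nonsense-mediated decay, had 14.4 and 14.6 CPM in input and 36.0 and 35.3 in RIP, a log2 fold change of 1.30 ± 0.08. The 4 DEAH members of this role had higher fold changes than its DEAD members, but with an offset for coding length, fitted on coding genes with a mean of at least 10 CPM, Dhx34 stood at 0.08 and Ddx39 at 0.11. Ddx1, a partner of the transfer RNA ligase, rose by 0.73, the export factor Ddx39 by 0.33 and Ddx6, an activator of decapping, by 0.26 on the log2 scale. On total counts Ddx39 stood at -0.02 and Ddx6 at -0.09, so the direction of these small differences depends on the scaling. Adgre5 on the opposite strand overlaps 17.4% of the exons of Ddx39.

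Ddx19a and Ddx19b are neighbouring paralogs on chromosome 8 whose proteins release messages at the nuclear pore. Ddx19a had 47.4 and 51.0 CPM in input and 52.8 and 54.4 in RIP, a log2 fold change of 0.12 ± 0.06 that did not pass (edgeR's quasi-likelihood test, Benjamini-Hochberg adjusted p = 0.057). Its direction depended on the processing. Ddx19a was called higher with RLE scaling (0.146), without the low-count filter (0.178) and with the gene-length offset (0.385). It was called lower on total counts (-0.23), with upper-quartile scaling (-0.22) and with the coding-length offset at 10 CPM (-0.19). Without input 2 or without RIP 1 the log2 fold change was 0.18. Ddx19b had 41.2 and 38.9 CPM in input and 27.5 and 26.8 in RIP and fell by 0.56 ± 0.07 on the log2 scale. Their coding lengths are nearly equal, 1434 and 1437 nt, but the 3′ UTR is 1033 nt in Ddx19a and 5062 nt in Ddx19b. The window printed for them is identical, but most of their 50-base words are not shared. Of these words, 33.3% in Ddx19a and 12.7% in Ddx19b occur in the other gene, which limits how well reads from those stretches separate them. Reads were 150 nt long, and the share of reads that fit both genes was not tested.

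The remaining roles hold few members. In mitochondria Dhx30, needed for assembly of the mitochondrial ribosome, had 75.5 and 72.2 CPM in input and 167 and 162 CPM in RIP, a log2 fold change of 1.15 ± 0.04. Ddx28, of the same pathway, had 11.8 and 11.2 CPM in input and 8.69 CPM in each RIP library and fell by 0.40 ± 0.12 on the log2 scale. The DNA helicase Ddx11, which works in sister chromatid cohesion, had 25.1 and 26.0 CPM in input and 55.5 and 58.2 in RIP, a log2 fold change of 1.15 ± 0.07. The mitochondrial pair moved in opposite directions here, but not with the gene-length offset, where Ddx28 stood at 0.08 and was not called, nor with the coding-length offset at 10 CPM, where both were called lower, Dhx30 at -0.09 and Ddx28 at -0.84.

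Among the sensors of viral RNA, Ddx58, which encodes RIG-I, had 21.2 and 23.1 CPM in input and 65.1 and 65.0 CPM in RIP, the highest log2 fold change of any DEAD member at 1.56 ± 0.07 (edgeR's quasi-likelihood test, Benjamini-Hochberg adjusted p = 5.4e-21). Dhx58, its relative that lacks the signalling domains, had 2.72 and 2.11 CPM in input and 1.60 and 1.72 in RIP. At 51 to 67 counts per library its log2 fold change of -0.54 ± 0.27 did not pass (edgeR's quasi-likelihood test, Benjamini-Hochberg adjusted p = 0.068), and it is the DEAH member that was not called. It was called lower on total counts (-0.89), with upper-quartile scaling (-0.89), a minimum of 1 CPM (-0.63), halved counts (-0.62) or the coding-length offset (-0.97). Ddx60, an antiviral helicase, had 1.54 and 2.28 CPM in input and 0.769 and 1.06 in RIP, from 26 to 55 counts per library, and fell by 1.05 ± 0.35 on the log2 scale. Without input 2 the log2 fold change was -0.744 and without RIP 1 it was -0.8, and neither passed, so the largest fall among the members rests on few counts.

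Both germ cell members fell, as did 38.6% of all genes tested. Ddx25, a gonadotropin-regulated testis helicase of germ and Leydig cells, had 59.4 and 54.6 CPM in input and 30.2 and 29.4 CPM in RIP, a log2 fold change of -0.94 ± 0.07 (edgeR's quasi-likelihood test, Benjamini-Hochberg adjusted p = 5.5e-15). Ddx25 lies at chr9:35536647-35558528 on the minus strand. Ddx43, a testis and tumour antigen, had 2.43 and 3.27 CPM in input and 2.01 and 1.74 CPM in RIP, a log2 fold change of -0.60 ± 0.25. It lost its call without input 2 (-0.37), without RIP 1 (-0.67) or without RIP 2 (-0.46), and 15.9% of its exons lie over an antisense gene, 4930542C12Rik. Of 9 germ cell markers 5 fell, 3 rose and Kit was not called, against 38.6% falling over all genes, and their summed level was 611 to 616 CPM in input and 261 to 269 in RIP. All 5 Leydig cell markers fell as well, from a sum of 312 to 321 CPM to 146 to 149 CPM. The part of cell markers in the result was not tested. A lower value here is a lower scaled level in RIP than in input and does not count cells.

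The 4 members with no role list of their own were called higher, Dhx32 not under every alternative. Coding genes of 2000 to 3000 nt, the range that holds the median coding length of these members, rose in 91.9% of cases. Dhx57 had 19.9 and 20.2 CPM in input and 66.3 and 72.0 CPM in RIP, the second largest rise, at 1.78 ± 0.07. Dhx40 had 103 and 96.4 CPM in input and 220.3 and 227 in RIP, a log2 fold change of 1.17 ± 0.04. Dhx32, which had no motif match, had 57.4 and 60.8 CPM in input and 76.6 and 79.7 in RIP, and its log2 fold change of 0.40 ± 0.05 was the smallest rise of a DEAH member. It lost its call on total counts (0.05) and was called lower with the coding-length offset (-0.11). Ddx59 rose by 0.61.

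The members' fold changes followed the length of their coding sequence, as did those of other genes. DEAH members are longer, with a median coding length of 3283.5 nt (2034 to 4149 nt) and 22.5 exons, against 1947 nt (1281 to 5130 nt) and 15 exons for DEAD members. Their 3′ UTRs are shorter, with medians of 423 nt and 967 nt. Across the 50 genes Spearman's rho between log2 fold change and coding length was 0.68, and it was 0.53 within the 34 DEAD and 0.64 within the 16 DEAH members. Over the 9600 coding genes rho was 0.78. These points share the same 4 libraries and are a description. With exon number rho was 0.545, with mean CPM 0.335, with 3′ UTR length -0.02 and with coding GC content -0.05 across the 50 members. Over the 9600 coding genes it was 0.61 with exon number, 0.274 with 3′ UTR length and -0.013 with coding GC content.

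**Figure D3:**
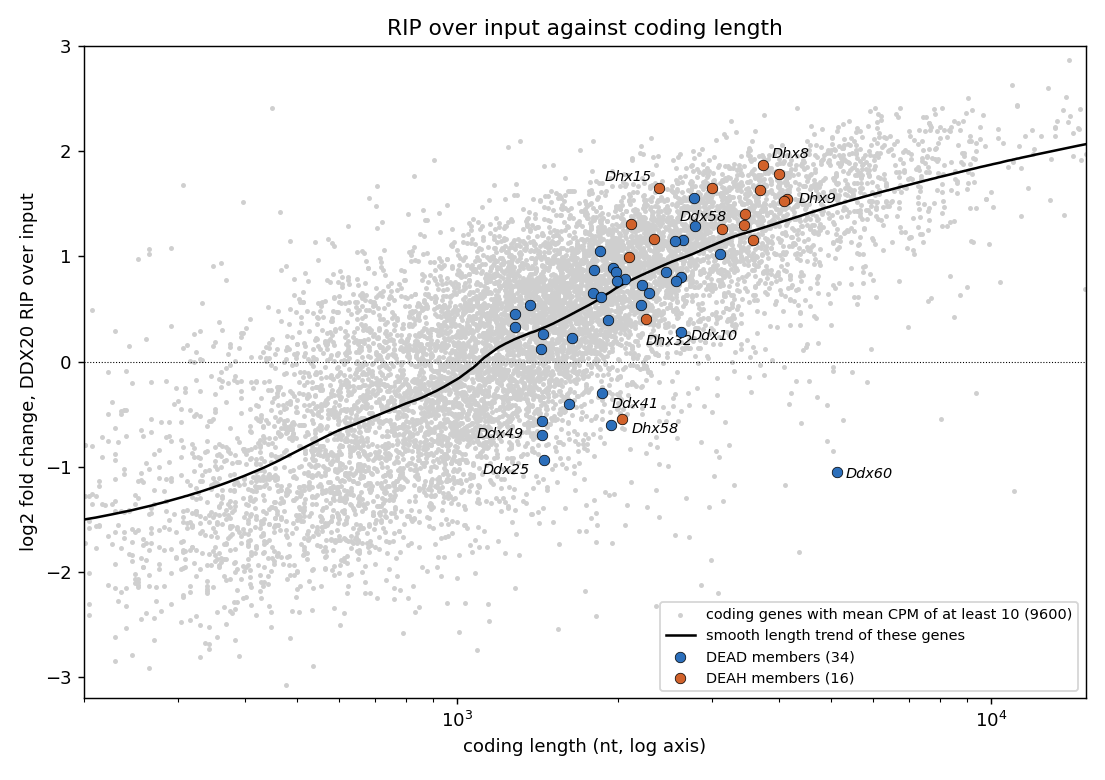
Log2 fold change of RIP over input against coding length (log axis) for the 34 DEAD members (blue), the 16 DEAH members (orange) and the 9600 coding genes with a mean of at least 10 CPM (grey; 53 lie outside the axes), with the smooth trend of the grey points (line). Of members with a mean of at least 10 CPM, 13 of 15 DEAH and 15 of 32 DEAD members lie above the trend. Ddx60, Ddx25, Ddx49, Ddx41 and Ddx10 are among the members below it.

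Compared with coding genes of like length, DEAD members stood at or below the median and DEAH members somewhat above it. Between 1000 and 2000 nt the 20 DEAD members had a median log2 fold change of 0.36, the same as the 0.36 of 3546 coding genes. Between 2000 and 3000 nt the median was 0.79 for 12 DEAD members and 1.08 for 6 DEAH members, against 0.98 for 1550 coding genes. Between 3000 and 5000 nt the median of 10 DEAH members was 1.54, against 1.33 for 1023 coding genes. All 10 rose at least 2-fold, as did 74.8% of those coding genes. The coding genes have a mean of at least 10 CPM, which Ddx43 and Dhx58 in these ranges do not reach. Lengths within a range also differed. From 1000 to 2000 nt the median was 1716 nt for DEAD members and 1413 nt for coding genes. From 2000 to 3000 nt it was 2562 nt for DEAD members, 2181 nt for DEAH members and 2386 nt for coding genes.

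An offset that removes the smooth trend with coding length was added to the test. Fitted on all coding genes, it left 36 members higher and 10 lower, against 43.7% and 30.2% of coding genes. Fitted on coding genes with a mean of at least 10 CPM, where 47 members remain, it left 24 higher and 17 lower, against 43.5% and 38.0% of the 9600 genes. In that second fit 12 of 15 DEAH members were higher and 2 lower with a median of 0.23, and 12 of 32 DEAD members were higher and 15 lower with a median of -0.07. The median of all 9600 genes in that fit was 0.05, so the DEAD median lay slightly below it and the DEAH median above it by less than without the offset. By direction alone, 13 of 15 DEAH members and 15 of 32 DEAD members lay above the trend, as did 53.1% of the coding genes.

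Dhx15 lay farthest above the trend of all 47, at 0.76 on the log2 scale, ahead of Dhx8 at 0.59, Dhx36 at 0.55, Dhx35 at 0.54 and Ddx58 at 0.53. Ddx5, with a coding length of 1845 nt, stood at 0.45. Farthest below were Ddx25 at -1.26, Ddx49 at -1.01, Ddx41 at -0.91, Ddx19b at -0.87, Ddx28 at -0.84 and Ddx10 at -0.70. Among the DEAH members Dhx32 at -0.44 and Dhx30 at -0.09 were lower than the trend, and Dhx34, at 0.08, was not called. Ddx60 has the longest coding sequence, 5130 nt, and the lowest fold change, but was under 10 CPM and not in this fit.

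**Figure D4:**
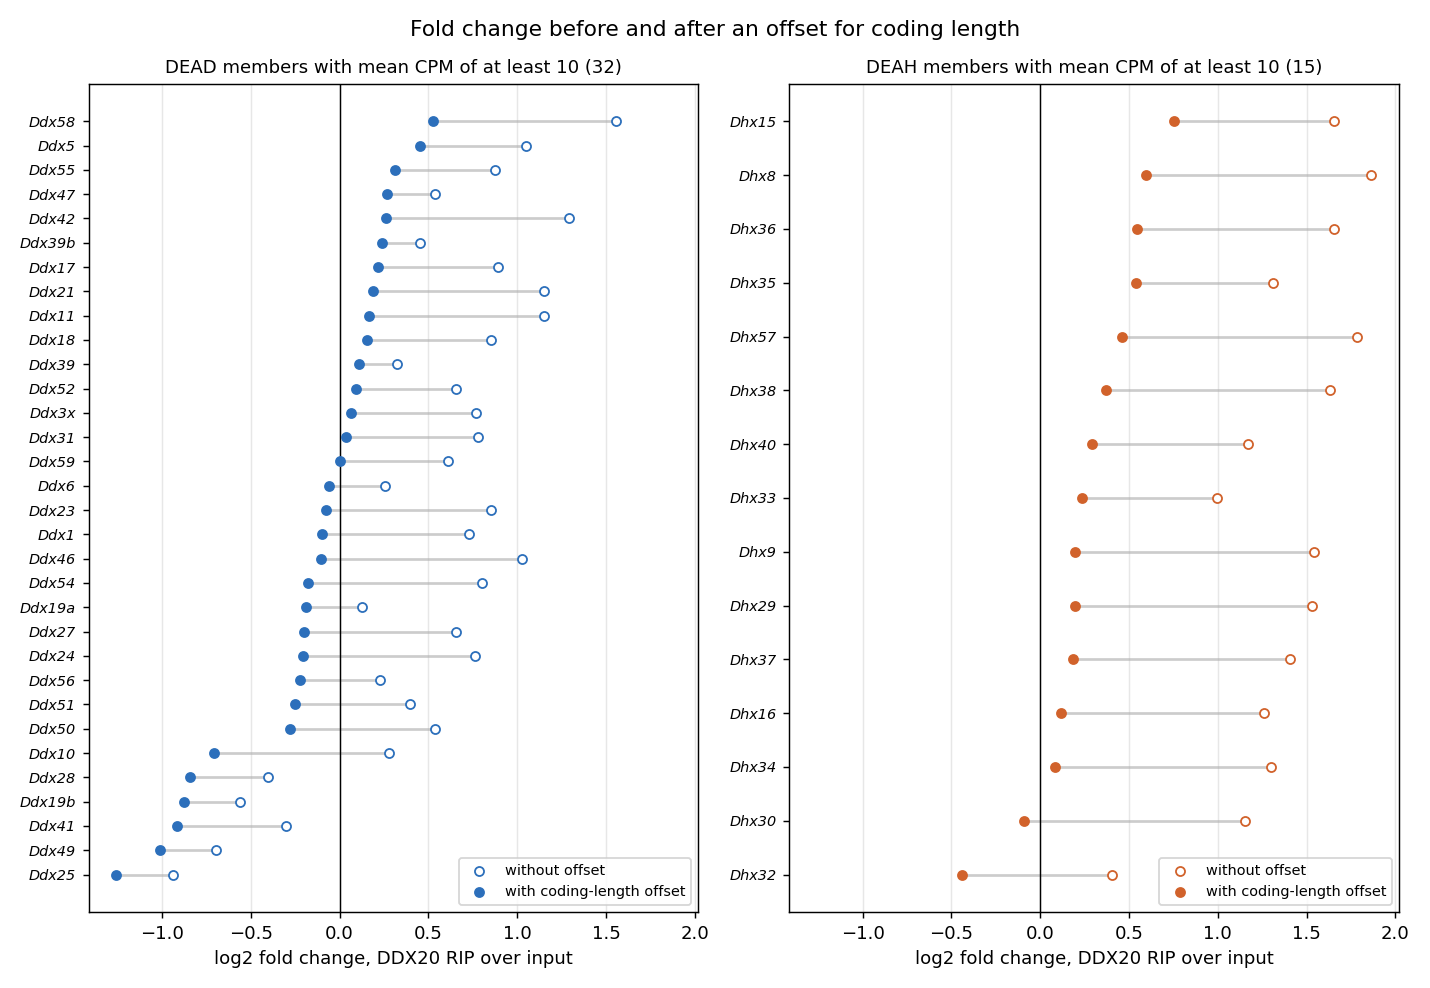
Log2 fold change of RIP over input without (open) and with (filled) the offset for coding length, fitted on coding genes with a mean of at least 10 CPM, for 32 DEAD (left) and 15 DEAH members (right), ordered by the value with the offset. The offset moves every member to the left, leaving 13 DEAH members and 15 DEAD members right of 0.

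Partners and relatives of the helicases were described from lists by name. Among RNA helicases without a Ddx or Dhx symbol, 20 of 23 rose, 2 fell and Hfm1 (-0.43) was not called, and their medians were 1.36 for the log2 fold change and 3732 nt for coding length. Coding genes of 3000 to 5000 nt rose in 96.4% of cases. Eif4a1, the DEAD box translation factor that unwinds leaders, rose from 752 ± 3.1 to 938 ± 12 CPM (SD, n = 2; log2 fold change 0.32), but on total counts it stood at -0.03. Eif4a2 fell from 95.8 ± 2.7 to 86.1 ± 3.1 CPM (-0.16) and Tdrd12, a germ cell helicase, fell from 9.07 ± 0.41 to 5.74 ± 0.92 CPM (-0.66). G-patch proteins, which switch on DEAH helicases, rose in 18 of 22 cases and fell in 3, against 91.9% of coding genes of 2000 to 3000 nt rising, with a median of 0.87, and Gpatch3 (0.04) was not called. Son rose by 1.82 and Tfip11, a partner of DHX15, by 1.38, while Gpatch11 fell by 1.02 and Gpatch4 fell by 0.42 on the log2 scale.

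Proteins with a MIF4G domain, which hold DEAD box proteins in an active shape, rose in 6 of 7 cases, against the same 91.9%, with a median of 1.20. Eif4g1, the scaffold that binds EIF4A, rose by 1.91 and Eif4g2 by 0.36, and Paip1 stood at -0.03 and was not called. The exon junction complex, built around the DEAD box protein EIF4A3, had 3 of 5 genes that fell and 2 that rose, against 38.6% falling and 38.7% rising over all genes, and a median of -0.67. Casc3 rose by 0.94 and Eif4a3 by 0.18, while Rbm8a fell by 0.67 and Magoh fell by 1.72 on the log2 scale; on total counts Eif4a3 stood at -0.17. The median coding length of this list was 522 nt.

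Totals were 21416567 to 21913977 counts in the input libraries and 37927689 to 38458014 in the RIP libraries. Input held markers of several cell types of the young testis: summed CPM were 4236 to 4259 for Sertoli cells, 2423 to 2430 for peritubular and stromal cells and 611 to 616 for germ cells. In RIP these sums were 2726 to 2731, 5358 to 5541 and 261 to 269 CPM. Of 8 Sertoli markers 2 rose and 5 fell, and of 5 peritubular and stromal markers 2 rose and 2 fell, and Col1a1 alone went from 1620 ± 16 to 4874 ± 135 CPM (SD, n = 2). All 5 macrophage and all 5 red blood cell markers and 3 of 5 endothelial markers fell, against 38.6% of all genes. The median coding length was 978 nt for the macrophage and 441 nt for the red blood cell markers, where the length trend lies below 0. It was 2352 nt for the endothelial markers, where the trend lies above 0. Median log2 fold changes of the macrophage, red blood cell and endothelial markers were -1.475, -2.11 and -1.136. With the coding-length offset fitted on all coding genes these medians were -1.087, -1.124 and -1.251. Whether cell types or carried-over RNA differ between RIP and input was not tested.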

How the data were processed

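Raw read counts per gene were deposited by the authors as 1 table with a column per library. The build was GRCm38 and the tools were STAR 2.7.2b, featureCounts, SAMtools, cutadapt 4.1 and Trimmomatic 0.36, per the submitters' processing notes. The annotation release and all settings: not given in the sources used here. Between 65.4% and 67.4% of counts per library are even, a sign of mates counted singly, which overstates depth. Per the labels, the NEBNext Ultra RNA kit was used.

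Symbols, lengths and positions were taken from GENCODE M21 (Biopython 1.88, pandas 2.3.3, Python 3.11.15), which named 52081 identifiers. Its gene models can differ from those counted. Groups and replicates came from the sample titles. RIP was tested against input over the whole table with edgeR 4.0.16 in R 4.3.3 (filterByExpr, TMM factors 0.880 to 1.13, robust quasi-likelihood fit and test, Benjamini-Hochberg threshold 0.05); the steps were tested on simulated data. Standard errors are the log2 fold change over the root of the F statistic. Replicates differed by 1.15 to 1.19 times counting noise (chi-square) and each stayed a sample of its own; the common coefficient of variation was 0.032. The offset for coding length was a loess trend of log2 fold change, span 0.3. Alternatives were other scalings, filters, DESeq2 1.42.0, limma 3.58.1 (voom), a test against 1.5-fold, length offsets, halved counts, a replicate block, each library left out and an assumed coefficient of variation of 0.2; the last, and the offset at a mean of at least 10 CPM, were added after seeing the data.

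The members, role, partner and marker lists were chosen with earlier results of these data known, so no list count is independent evidence. Values in every library are given for the most abundant member of each role list, the 6 largest rises and falls among called members, and every DEAH member; members that did not pass are named; from partner lists the 2 called genes per direction with the highest mean CPM are named. Other members are named with their fold change. Members singled out by their distance from the length trend, Col1a1, and the overlapping genes were chosen after their values were seen.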

Additional observations from a re-analysis of the deposited data

How the results depend on the processing

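Direction and call were kept by 23 of 50 members under all 18 alternatives, and 27 differed under at least 1. With a replicate block 41 members rose and 7 fell and no call changed. The same-numbered libraries did not deviate together (r = 0.01). Repeats differed by only 1.15 to 1.19 times counting noise, so this cannot show whether same-numbered libraries share a cell preparation. Of 17422 genes, 4210 rose and 4426 fell against 1.5-fold; 4425 of 14673 coding genes fell with the coding-length offset, and 4180 of 9600 rose and 3644 fell with that offset at a mean of at least 10 CPM. Members that fell numbered 11 with upper-quartile or total-count scaling, 2 against 1.5-fold and 3 with an assumed coefficient of variation of 0.2. With the offset at 10 CPM 24 members rose and 17 fell. DEAD members rose and fell in 16 and 2 cases against 1.5-fold, 12 and 15 with the offset at 10 CPM, and 17 and 3 with the assumed coefficient. DEAH members fell in 1 case with upper-quartile or total-count scaling, a minimum of 1 CPM or halved counts, and in 2 with either coding-length offset. The DEAD median log2 fold change was 0.65 (RLE, DESeq2), 0.29 (upper quartile), 0.28 (total counts), 0.69 (no low-count filter), 0.55 (minimum of 1 CPM), 0.59 (halved counts), 0.21 (coding length), 0.49 (gene length) and -0.069 (offset at 10 CPM), and 0.60 to 0.70 with 1 library left out. The DEAH median was 1.02, 1.01, 1.41, 1.27, 1.31, 0.53, 1.10 and 0.23 for the same alternatives from upper quartile on, and 1.36 to 1.44 with 1 library left out. The ratio of summed CPM was 1.925 (RLE), 1.495 (upper quartile) and 1.49 (total counts). Signs turned with the offset at 10 CPM for Dhx30 (-0.09), Ddx46 (-0.11), Ddx23 (-0.075), Ddx54 (-0.18), Ddx24 (-0.20), Ddx1 (-0.10), Ddx27 (-0.20), Ddx50 (-0.28), Dhx32 (-0.44), Ddx51 (-0.25), Ddx10 (-0.70), Ddx6 (-0.062), Ddx56 (-0.23) and Ddx19a (-0.19). They turned with the coding-length offset for Dhx32 (-0.11) and Ddx10 (-0.38), and with the gene-length offset for Ddx50 (-0.14), Ddx6 (-0.29), Ddx41 (0.033) and Ddx28 (0.083). With upper-quartile and total-count scaling they turned for Ddx39 (-0.017, -0.023), Ddx10 (-0.065, -0.071), Ddx6 (-0.084, -0.09), Ddx56 (-0.12, -0.12) and Ddx19a (-0.22, -0.23). Scaling and the offsets set the reference for no change by construction; the offsets also test fewer genes, and for other differences the cause was not tested. The lowest counts are those of Dhx58, Ddx43 and Ddx60, 26 to 79 per library.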
